A study of Mus musculus with 21 samples.

Results

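The constant genes of the mouse immunoglobulin loci were followed by isotype in skin and in skin-draining lymph nodes of *Ifnk* transgenic (TG) mice. Genes were taken by symbol: the heavy chain genes Ighm, Ighd, Ighg1, Ighg2b, Ighg2c, Ighg3, Igha and Ighe, the kappa light chain gene Igkc, and Jchain. All 10 were present among the 55487 genes of both count tables, and 8 of 10 in skin and 10 of 10 in nodes had enough counts to be tested, among 19101 and 16173 tested genes. In skin, Ighg3 and Ighe were the ones below the filter.

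TG mice carry an Ifnk transgene under the keratin 14 promoter, which drives expression in basal keratinocytes, made on C57Bl/6 and backcrossed onto BALB/c. WT mice were BALB/c. Skin came from untreated mice of 12 months: WT skin without lesions (n = 3), TG nonlesional skin (NL, n = 2) and TG lesional skin (L, n = 4). Inguinal lymph nodes came from 12-week-old WT and TG mice, either untreated (NoTx) or after UVB, with n = 3 in each of the 4 groups. UVB was given at 250 mJ/cm2 on 3 days a week for 2 weeks, with a further 2 weeks of observation. The paper reports unaffected skin in young TG mice. It also reports UV-induced skin lesions in irradiated WT and TG mice, and gross healing of them in TG mice. The labels do not say which libraries, if any, share a mouse, nor give the sex of each mouse, so p-values measure the spread between these libraries.

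B cells first express IgM and IgD together from the same rearranged heavy chain gene. After activation, class switching replaces the mu and delta constant genes with a downstream gamma, epsilon or alpha gene, so that the cell makes IgG, IgE or IgA with the same variable region. Plasma cells secrete these antibodies in large amounts, most mouse antibodies carry a kappa light chain, and the J chain joins IgM or IgA into polymers. The constant genes produce secreted and membrane transcripts, which gene totals do not separate, and loci that have not rearranged or switched also give germline transcripts that hold a constant gene.

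In GRCm38 the heavy chain constant genes lie on the minus strand of chromosome 12, in the order Ighm (113418558 to 113422730), Ighd (113406604 to 113416324), Ighg3 (113356224 to 113361232), Ighg1 (113325240 to 113330523), Ighg2b (113302965 to 113307933), Ighg2c (113285325 to 113288932), Ighe (113269260 to 113273248) and Igha (113254830 to 113260236). Igkc is on the plus strand of chromosome 6 (70726435 to 70726966) and Jchain on the minus strand of chromosome 5 (88519809 to 88527891). Because IgG subclasses are compared below, the first 90 bases of the first constant exon (CH1) of each gamma gene are shown from the reference genome, 5′ to 3′ on the minus strand, with capitals at bases that differ from Ighg1.
Ighg1, chr12:113330434-113330523: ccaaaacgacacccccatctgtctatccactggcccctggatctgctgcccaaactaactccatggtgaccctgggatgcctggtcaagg
Ighg2b, chr12:113307844-113307933: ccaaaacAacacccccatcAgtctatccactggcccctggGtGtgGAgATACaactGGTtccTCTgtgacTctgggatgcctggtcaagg
Ighg2c, chr12:113288843-113288932: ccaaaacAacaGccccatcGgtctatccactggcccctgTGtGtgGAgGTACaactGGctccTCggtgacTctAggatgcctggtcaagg
Ighg3, chr12:113361143-113361232: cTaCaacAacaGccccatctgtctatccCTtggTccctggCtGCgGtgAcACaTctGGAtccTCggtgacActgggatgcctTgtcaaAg
These stretches differ from Ighg1 at 17, 18 and 23 of 90 bases. Over the whole 291-base exon, identity was 88.3% between Ighg1 and Ighg2b, 88% between Ighg1 and Ighg2c, and 79% between Ighg1 and Ighg3. Of the 50-base words in annotated exons, 5.49% of those of Ighg2c also occurred in Ighg2b and none of those of Ighm or Ighd occurred in another heavy chain gene. Most words were thus specific to 1 gene, but the division of reads between gamma genes remains uncertain. Ighg2c is doubly so, since BALB/c mice carry the Ighg2a gene in its place while the reference is C57BL/6J.

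Total counts were 40499078 to 56511276 in skin and 27599809 to 36428435 in nodes. Summed over the members, the share of the total was 0.00409% to 0.0344% in skin and 0.134% to 0.25% in nodes. Ifnk itself had 0 counts in the 3 WT skin libraries, 6 and 0 in NL, 14, 11, 5 and 8 in L, and 0 in every node library. Xist, transcribed from the inactive X chromosome of female cells, had 3297 to 9353 counts in 7 skin libraries, but 13 in NL replicate 3 and 6 in L replicate 6, and 3 to 42 in the node libraries. Keratinocyte genes (Krt5, Krt14, Krt1, Krt10) summed to 7519 to 22267 CPM (counts scaled to 1000000 per library) in skin and 1.01 to 2.45 in nodes. B cell genes summed to 1673 to 3251 CPM in nodes and 1.8 to 7.38 in skin.

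By median level Ighm was the most abundant member in skin, and it was lower in lesions. In L replicate 6, however, Igha (96.5 CPM), Jchain (80.3) and Igkc (64.7) exceeded Ighm (51.1). Ighm had 102.8, 106 and 66.2 CPM in WT skin (replicates 8 to 10) and 209 and 124 CPM in NL skin. L skin had 29.9, 20.6, 51.1 and 51.1 CPM (replicates 4 to 7). No L library reached the lowest WT or NL library. Lesional skin was 2.40-fold below WT (log2 fold change −1.27, SE 0.35, adjusted p = 0.0197, edgeR quasi-likelihood test) and 4.35-fold below NL (−2.12, SE 0.38, adjusted p = 0.0067). NL and WT differed by 0.86 on the log2 scale (SE 0.41, adjusted p = 0.679), although both NL libraries exceeded all WT libraries.

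Ighd, transcribed with Ighm in naive B cells, had 3.54, 2.18 and 1.66 CPM in WT, 1.28 and 1.32 in NL, and 0.71, 0.518, 1.85 and 0.378 in L. L replicate 6 lay within the WT range, so the groups overlapped. The L against WT difference was −1.51 (SE 0.53, adjusted p = 0.0467), and the L against NL difference of −0.59 (SE 0.60) did not pass. The Ighm call against WT was lost without WT replicate 8 (−1.18, adjusted p = 0.0609) or 9 (−1.16, adjusted p = 0.0624), the Ighm call against NL without NL replicate 2 (−1.70, adjusted p = 0.0671), and the Ighd call without any 1 library other than L replicate 6 (adjusted p 0.0571 to 0.166) or in a fit of WT and L alone (adjusted p = 0.061).

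In 3 skin libraries without lesions, many Ighm counts came with few Igkc or variable gene counts. WT replicate 9 had 4483 Ighm counts with 3 Igkc counts, 2 counts of Cd79a, which encodes a B cell receptor signalling chain, and 0 counts over all heavy or kappa variable genes. WT replicate 8 had 4508 Ighm, 10 Igkc, 0 heavy variable and 7 kappa variable counts, and NL replicate 3 had 5044 Ighm, 5 Igkc, 0 heavy variable and 1 kappa variable count. Their Cd79a counts were 5 and 13. Those 3 libraries thus had 451 to 1494 Ighm counts per Igkc count. In the 12 node libraries the ratio was 2.55 to 3.94, which per kilobase of exon corresponds to 0.719 to 1.11.

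**Figure D1:**
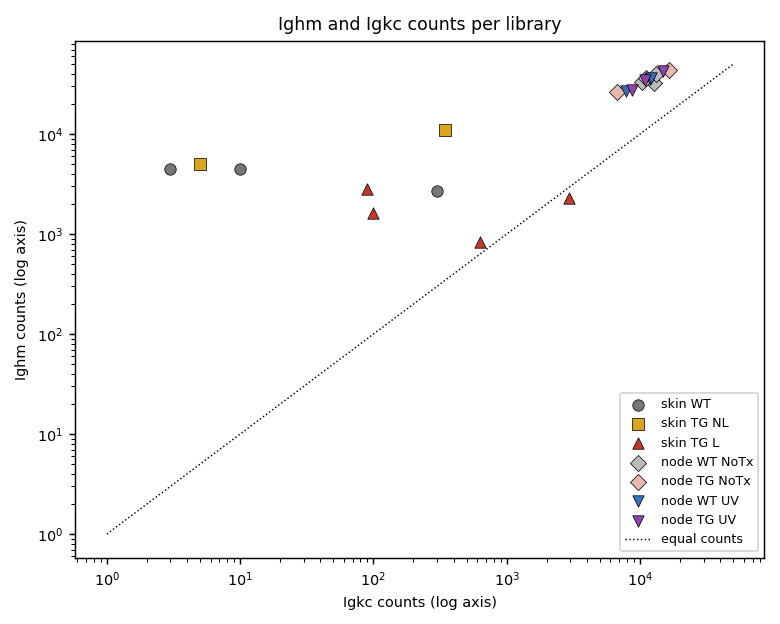
Ighm counts against Igkc counts in each of the 21 libraries, both on log axes, with symbols for the 7 groups and a dotted line at equal counts. Node libraries form 1 tight cluster, skin without lesions has 2676 to 10916 Ighm counts at 3 to 344 Igkc counts, and L replicates 5 and 6 lie near the line.

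The ratio was 31.7 in NL replicate 2 and 8.98 in WT replicate 10, the nonlesional libraries with 244 and 213 kappa variable counts, and 16.6, 1.33, 0.79 and 31.8 in the 4 L libraries. Ighd was likewise scarce beside Ighm in skin, with 0.00614 to 0.0362 Ighd counts per Ighm count against 0.469 to 0.672 in nodes. Over the 9 skin libraries, the Pearson correlation of log2 CPM was −0.44 between Ighm and Igkc, whereas over the 12 node libraries it was 0.95. Between Ighm and Ighd it was 0.59 in skin and 0.90 in nodes. The genes nearest to Ighm in pattern were Man2c1 (r = 0.97), Ptger3 and Nprl3 in skin, and Myo1e (r = 0.97), Cd74 and Cd79a in nodes. These coefficients describe libraries that also share group, depth and composition.

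Tissue composition moved with the fall of Ighm. Skeletal muscle genes (Acta1, Ckm, Mylpf, Tnnt3) summed to 17373 to 23330 CPM in WT, 15745 to 17965 in NL and 15.3 to 4224 in L, with 1 of 4 (Acta1) lower in L than in WT. Adipocyte genes (Adipoq, Plin1, Fabp4, Lep) summed to 3656 to 6767, 2910 to 3948 and 591 to 2672 CPM, with 2 of 4 (Adipoq and Fabp4) lower. Between L and WT, 20.2% of all tested genes were lower. Hair shaft keratins summed to 705 to 2894 CPM in L and at most 0.368 elsewhere. Their part in the Ighm difference was not tested, and fewer cells of a type cannot be told apart from less RNA per cell in bulk tissue.

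Igha, the constant gene of IgA, was the only switched gene called in skin by edgeR (DESeq2 also called Ighg2c against WT, and Ighg1 and Igha against NL). It had 0.525, 0.902 and 2.13 CPM in WT, 1.38 and 0.883 in NL, and 6.3, 13.5, 96.5 and 3.03 in L. Each L library exceeded every WT and NL library, and L replicate 6 was far above the rest. Igha was 25.2-fold higher in L than in WT (log2 fold change 4.66, SE 1.36, adjusted p = 0.0258). Against NL the difference was 4.71 (SE 1.63, adjusted p = 0.0692). Without L replicate 6 the differences were 2.68 (adjusted p = 0.0186) and 2.74 (adjusted p = 0.0483), and the call against WT was lost without WT replicate 8 (4.30, adjusted p = 0.0843), 9 (4.47, adjusted p = 0.0829) or 10 (5.38, adjusted p = 0.052), or without a filter on low counts (4.64, adjusted p = 0.0754).

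The gamma genes were scarcer and uneven. Ighg1 had 0, 0.0237 and 1.06 CPM in WT, 0.0956 and 0 in NL, and 0.0364, 13.9, 9.3 and 1.48 in L. In 3 of the 4 lesions Ighg1 was above all other skin, while L replicate 4 had 2 counts, and the L against WT difference of 4.10 (SE 1.88, adjusted p = 0.112) did not pass. Ighg2b had 0, 0.0237 and 3.49 CPM in WT, 0.268 and 0 in NL, and 1.35, 0.444, 14.9 and 0.126 in L. WT replicate 10 exceeded 3 of the 4 lesions, and the difference of 1.85 (SE 1.97, adjusted p = 0.482) became −0.86 without L replicate 6.

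Ighg2c had 0 counts in all 3 WT libraries, 29 and 0 in NL, and 9, 27, 50 and 0 in L. The mean L level was at least 6.77-fold higher than a WT floor of 3 counts per library, with 1 lesion itself at 0. Ighg3 had 2, 1 and 1 counts in WT, 2 and 2 in NL, and 0, 4, 53 and 0 in L. A single Ighe count occurred in all 9 skin libraries, in L replicate 6, so Ighe was not detectable at this depth in the others, where 0 counts allow up to 3.

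Across skin libraries Igkc and Jchain went with Igha and the tested gamma genes, and not with Ighm. Igkc had 0.228, 0.0712 and 7.37 CPM in WT, 6.57 and 0.123 in NL, and 1.8, 15.6, 64.7 and 1.6 in L. Jchain had 0.0912, 0.19 and 6.6 CPM in WT, 3.25 and 0.0736 in NL, and 1.89, 14.2, 80.3 and 1.51 in L. WT replicate 10 and NL replicate 2 lay above the 2 lowest lesions for both genes. Neither difference passed against WT (3.04, SE 1.95, adjusted p = 0.244 for Igkc, and 3.42, SE 1.98, adjusted p = 0.198 for Jchain) or against NL (2.63, SE 2.25, and 3.85, SE 2.42). The 2 genes had r = 0.98 with each other over the 9 libraries, and Igha had r = 0.83 with Igkc and 0.88 with Jchain. With Igkc and Jchain, r was 0.83 and 0.87 for Ighg1, 0.86 and 0.90 for Ighg2b, and 0.79 and 0.78 for Ighg2c.

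In all, 3 of 8 tested members were called between L and WT, against 43.1% of all tested genes, with 1 higher (all genes 23.0%) and 2 lower (20.2%). Between L and NL 1 of 8 was called, Ighm, against 25.0% of all genes. DESeq2 called 4 of 8 against WT and 3 of 8 against NL, beside 9017 and 6200 of all 19101 tested genes. These shares do not set the members apart from the background. No member was called between NL and WT by edgeR (background 0.00%) or DESeq2 (80 of 19101 genes), and none had an unadjusted edgeR p under 0.05.

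**Figure D2:**
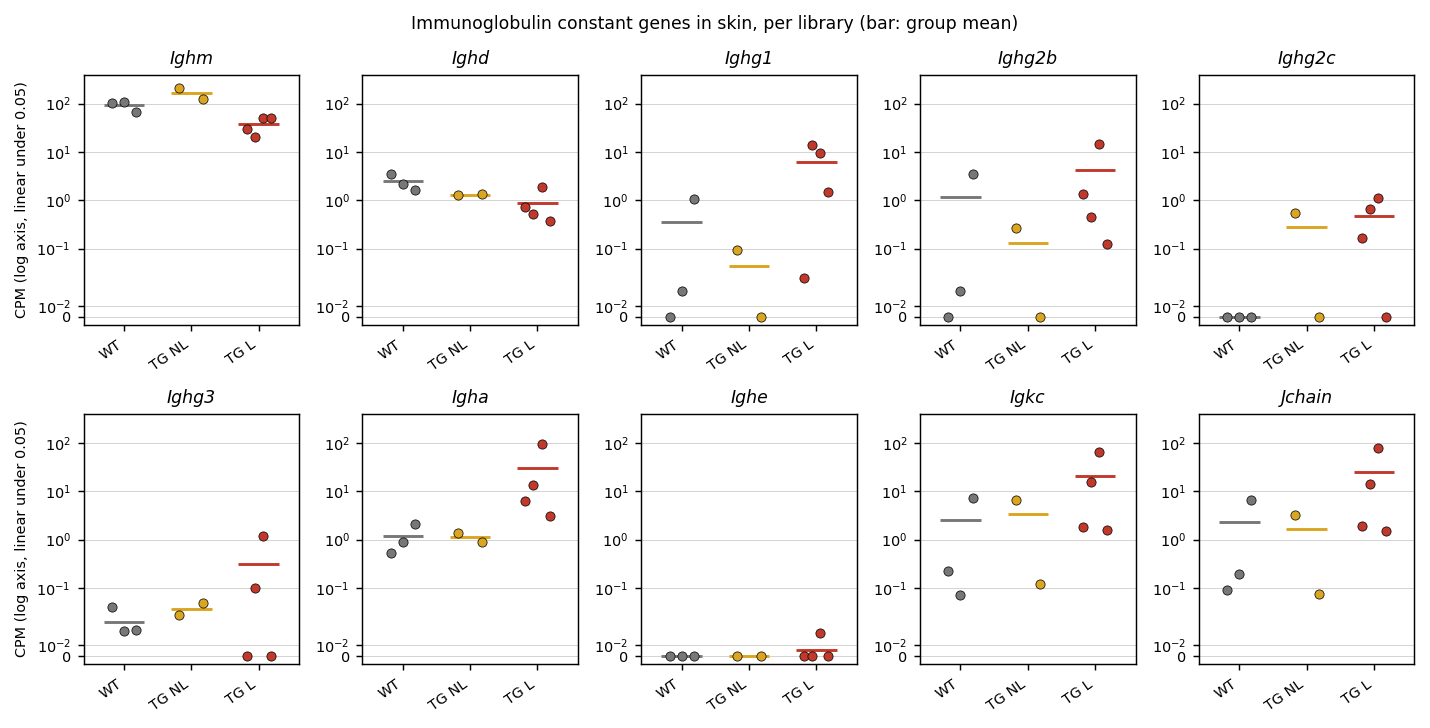
CPM of each of the 10 genes in every skin library, on an axis that is logarithmic above 0.05 CPM and linear below, with a bar at the group mean. The 4 L libraries are below all others for Ighm and above all others for Igha, while WT replicate 10 and NL replicate 2 overlap L for Igkc and Jchain.

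The isotype make-up is given by shares, which were not tested. Switched genes (gamma, alpha and epsilon) gave 0.533% (95% Wilson interval 0.361 to 0.786), 0.888% (0.655 to 1.2) and 8.99% (8.02 to 10.1) of heavy chain constant counts in WT. In NL they gave 1.1% (0.921 to 1.31) and 0.74% (0.54 to 1.01). In L the shares were 20.4% (18.8 to 22.2), 57.5% (55.3 to 59.6), 69.9% (68.9 to 70.9) and 8.26% (7.34 to 9.28). These intervals cover counting error only, and L replicate 7 fell below WT replicate 10. Ighm gave 88.8% to 97.1% of this total in WT and was lower in L, which raises the switched share by itself. How much of the difference in shares came from Ighm was not tested. Group means were 3.47% ± 4.78 (SD, n = 3), 0.919% ± 0.254 (SD, n = 2) and 39% ± 29.4 (SD, n = 4), and the WT mean without replicate 10 was 0.711%.

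Igha supplied most switched counts in most skin libraries, with or without lesions. Its share was 92%, 92.7% and 31.7% in WT and 59% and 94.7% in NL, from only 25, 41, 271, 122 and 38 switched counts. In L it was 80.3%, 78.5% and 65.4% in replicates 4, 6 and 7. In L replicate 5 Igha (47.1%) and Ighg1 (48.7%) were nearly equal. WT replicate 10 had 52% from Ighg2b and 15.9% from Ighg1. Since Ighm counts in skin without lesions had few matching light chain counts, switched counts were also set against Igkc. Their ratio was 4.35, 1.84, 1.9 and 2.89 in L, 0.909 in WT replicate 10 and 0.355 in NL replicate 2, the skin libraries with at least 89 Igkc counts. In WT replicates 8 and 9 and NL replicate 3, with 10, 3 and 5 Igkc counts, it was 2.5, 13.7 and 7.6.

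**Figure D3:**
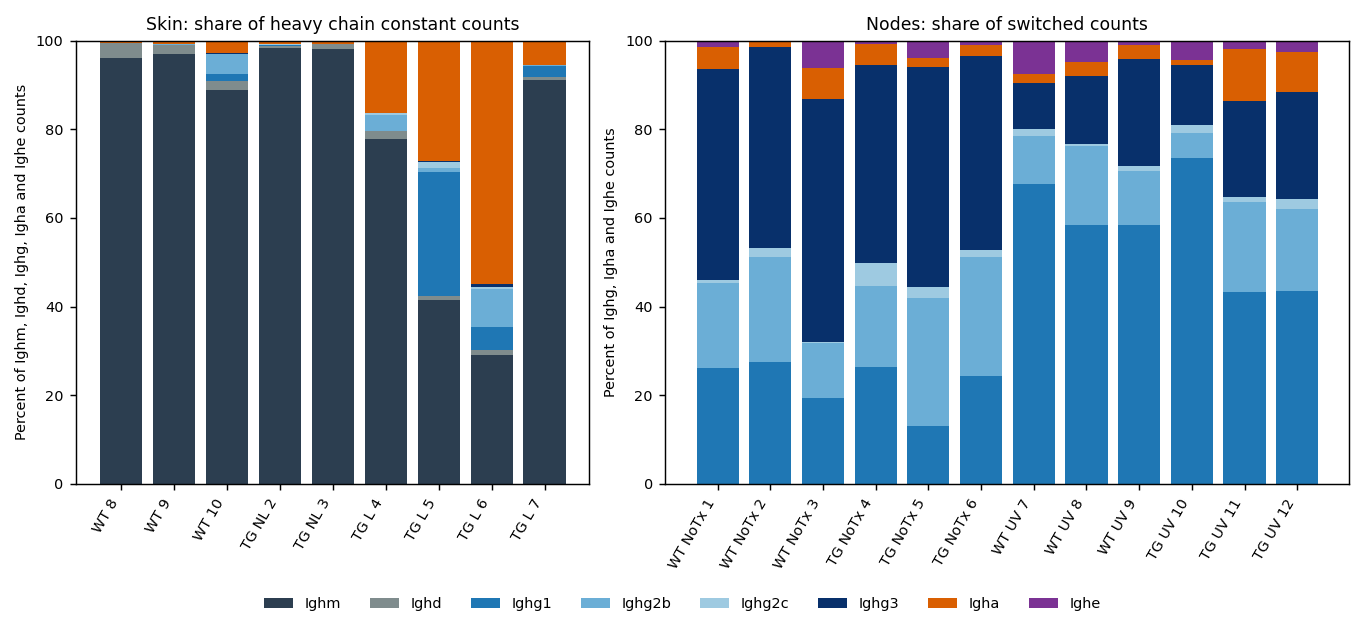
Left, percent of heavy chain constant counts from each gene in the 9 skin libraries. Right, percent of switched counts (gamma, alpha and epsilon genes only) from each gene in the 12 node libraries. Ighm fills nearly the whole bar in skin without lesions and 29.1% to 91.1% in lesions, and the largest switched part is Ighg3 in all 6 NoTx nodes and Ighg1 in all 6 UV nodes.

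Other genes of the antibody system in skin were read from lists drawn up with earlier results known. Between L and WT, 23.0% of all tested genes were higher and 20.2% lower, to be set beside each list count. Of 8 tested B cell genes, 2 were higher in L than in WT, Cd22 (log2 fold change 2.20, SE 0.65, adjusted p = 0.0236), an inhibitory B cell receptor partner, and Blk (2.29, adjusted p = 0.0416), a kinase of that pathway. The list's median difference was −0.01, beside 0.06 over all genes. Cd79a differed by 0.23 (SE 0.86, adjusted p = 0.849). Of 10 plasma cell genes 3 were higher and 1 lower, with a median of 0.49. The higher ones were Mzb1 (3.84, SE 0.98, adjusted p = 0.0131), a chaperone of antibody assembly, Prdm1 (1.59, adjusted p = 0.000381), the transcription factor of terminal B cell differentiation that keratinocytes and T cells also use, and Sdc1 (1.38), which keratinocytes also express. Irf4, a transcription factor of plasma cells and other lymphocytes, was lower (−1.16, adjusted p = 0.0244).

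Among 7 germinal centre and switching genes 1 was higher, Ung (1.18, adjusted p = 0.00434), a uracil glycosylase of switching and DNA repair. Bcl6 (−1.17, adjusted p = 0.000896), a repressor that germinal centre B cells require, was the 1 lower. This list summed to 77.2 to 155 CPM in skin, where the B cell genes summed to 1.8 to 7.38 CPM. Which cells gave the Ung and Bcl6 counts was not tested. None of 3 tested lambda light chain genes passed, while 23.0% of all tested genes were higher and 20.2% lower. Of 11 Fc receptor and transporter genes 3 were higher and 1 lower, led by Fcgr4 (3.83, SE 0.57, adjusted p = 0.00114), a myeloid cell receptor for IgG2 subclasses, Fcer1a (1.58, adjusted p = 0.00352), the IgE-binding chain of mast cells and basophils, and Fcamr (1.39, adjusted p = 0.0498), a receptor for IgA and IgM. Fcgrt, the neonatal Fc receptor that protects IgG from degradation, was lower (−1.32, adjusted p = 0.0185).

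Isotype-directing cytokines and factors had a median of 1.10 between L and WT, where 23.0% of all genes were higher and 20.2% lower. Of 12 tested, 5 were higher and 0 lower. They included Ifng (4.67, SE 1.51, adjusted p = 0.0356), which directs switching to IgG2a or IgG2c, Cd40lg (3.21, adjusted p = 0.0142), the T cell signal to CD40 on B cells, and Il13 (1.94, adjusted p = 0.024) as well as Cd40 (adjusted p = 0.0337). Tgfb1, the main inducer of switching to IgA, differed by 0.24 (SE 0.12, adjusted p = 0.138). Of 6 T cell genes 3 were higher, Cd8a (4.85, adjusted p = 0.00899), Cd4 and Lck. Between L and NL, 13.2% of all tested genes were higher and 11.8% lower. Higher there were 0 of 12 isotype-directing genes, 0 of 8 B cell genes and 2 of 6 T cell genes. So were 1 of 10 plasma cell genes (Prdm1, 0.91, adjusted p = 0.0144) and 3 of 11 Fc receptor genes (Fcgr4, Fcer1a and Ms4a2). Bcl6 was lower (−0.89, adjusted p = 0.0102). Although none was called, the isotype-directing genes had a median of 1.46, beside 0.03 over all genes.

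In lymph nodes every member was detected in every library, and IgM and IgD transcripts dominated. Per kilobase of exon, the order of median levels over the 12 libraries was Igkc (638 CPM per kb), Ighm (552), Ighd (328), Jchain (7.68), Ighg1 (6.57), Ighg3 (4.83), Ighg2b (2.58), Ighe (0.542), Ighg2c (0.53) and Igha (0.507). The ranges of neighbours in this order overlapped throughout, except those of Ighd (184 to 433) and Jchain (3.22 to 21.8). Ighm and Ighd gave 58.8% to 66.9% and 31.3% to 39.9% of heavy chain constant counts, and switched genes 0.748% to 7%. Ighm had 747 to 1225 CPM in 6 NoTx nodes and 971 to 1298 in 6 UV nodes, and Igkc 189 to 447 and 288 to 459 CPM. In WT, Ighd had 632 to 823 CPM in NoTx and 531 to 620 in UV nodes. These WT ranges were separate, but the difference of −0.27 (SE 0.22, adjusted p = 0.476) did not pass. The lowest node library for Ighm, Ighd and Igkc was TG NoTx replicate 5, which also had the lowest B cell gene sum.

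Ighg1 was higher after UVB averaged over genotype, with no overlap between treatments in either genotype. WT nodes had 4.89, 11.9 and 2.98 CPM untreated and 85.9, 24.9 and 25.7 CPM after UVB. TG nodes had 9.08, 2.55 and 12.2 CPM untreated and 72.1, 24.4 and 21.8 CPM after UVB. Each UV library exceeded each NoTx library, and the highest UV node of either genotype stood well above the other two. Averaged over genotype, Ighg1 was 5.86-fold higher (log2 fold change 2.55, SE 0.59, adjusted p = 0.036). Within WT the difference was 2.79 (SE 0.84, adjusted p = 0.0866) and within TG 2.31 (SE 0.82, adjusted p = 0.455), and the interaction did not pass (−0.48, SE 1.13, adjusted p = 0.947). Leaving out 1 library at a time kept the averaged difference between 2.13 and 2.92. The call was lost without WT NoTx replicate 1 or 3, TG NoTx replicate 4, 5 or 6, WT UV replicate 7 or 8, or TG UV replicate 10, with adjusted p 0.05 to 0.0899.

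Igha had 0.905, 0.47 and 1.07 CPM in WT NoTx, 2.61, 1.38 and 1.41 in WT UV, 1.65, 0.397 and 1.33 in TG NoTx, and 1.28, 6.61 and 4.59 in TG UV. The WT groups were separate, whereas TG UV replicate 10 lay inside the TG NoTx range. Averaged over genotype Igha was 2.85-fold higher after UVB (1.51, SE 0.43, adjusted p = 0.0483), from 14 to 190 counts a library, with 1.14 (SE 0.61, adjusted p = 0.257) in WT, 1.88 (SE 0.60, adjusted p = 0.372) in TG and an interaction of 0.74 (SE 0.85, adjusted p = 0.884). Leaving out 1 library at a time gave 1.25 to 1.71, and the call was kept only without TG UV replicate 10 or 12, with adjusted p 0.066 to 0.0969 without any other library.

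Ighe, the IgE gene, had 0.272, 0.157 and 0.952 CPM in WT NoTx, 9.61, 2 and 0.398 in WT UV, 0.27, 0.766 and 0.461 in TG NoTx, and 4.19, 1.08 and 1.22 in TG UV. WT UV replicate 9 lay within the untreated range, and the TG groups were separate. The averaged difference of 2.62 (SE 0.77, adjusted p = 0.0611) did not pass with edgeR, and passed with DESeq2 (2.61, adjusted p = 0.0092) and without the robust fit (adjusted p = 0.0384). Within WT it was 3.11 (SE 1.10, adjusted p = 0.115), within TG 2.12 (SE 1.07, adjusted p = 0.578), and the interaction −0.996 (SE 1.51, adjusted p = 0.913). The 2 UV libraries highest for Ighe were also the 2 highest for Ighg1 and Jchain.

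Other switched genes showed no call. Ighg3 had 8.47 to 22 CPM in NoTx and 6.51 to 13.1 in UV nodes (−0.31, SE 0.26, adjusted p = 0.472), Ighg2b 1.93 to 13.5 and 5.36 to 13.7 (0.40, SE 0.43, adjusted p = 0.583), and Ighg2c 0.0307 to 1.78 and 0.254 to 1.95. Jchain had 8.11 to 36.1 and 12.3 to 54.9 CPM (0.72, SE 0.42, adjusted p = 0.297). In all, 2 of 10 members passed for UVB averaged over genotype, both higher, against 8.61% of all genes (4.81% higher and 3.80% lower). Within WT, edgeR called 0 of 10 (2 at an unadjusted p under 0.05), with a background of 4.98% (2.92% higher and 2.06% lower). DESeq2 called 2, Ighg1 and Ighe, beside 2002 of all 16173 tested genes. Within TG both tools called 0 of 10 (2 at an unadjusted edgeR p under 0.05), with a background of 0.00% by edgeR and 137 of 16173 genes by DESeq2.

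Among switched counts, the leading gene differed between NoTx and UV nodes. Ighg3 gave 43.7% to 54.9% and Ighg1 13% to 27.5% in the 6 NoTx nodes, while Ighg1 gave 43.4% to 73.4% and Ighg3 10.3% to 24.2% in the 6 UV nodes. Neither range overlapped between treatments, in WT or in TG. Since these are shares of 1 total, a higher share of Ighg1 lowers the others by itself, and the Ighg3 level did not pass the test. Switched genes as a whole gave 0.748% to 2.9% of heavy chain counts in NoTx and 2.49% to 7% in UV nodes.

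**Figure D4:**
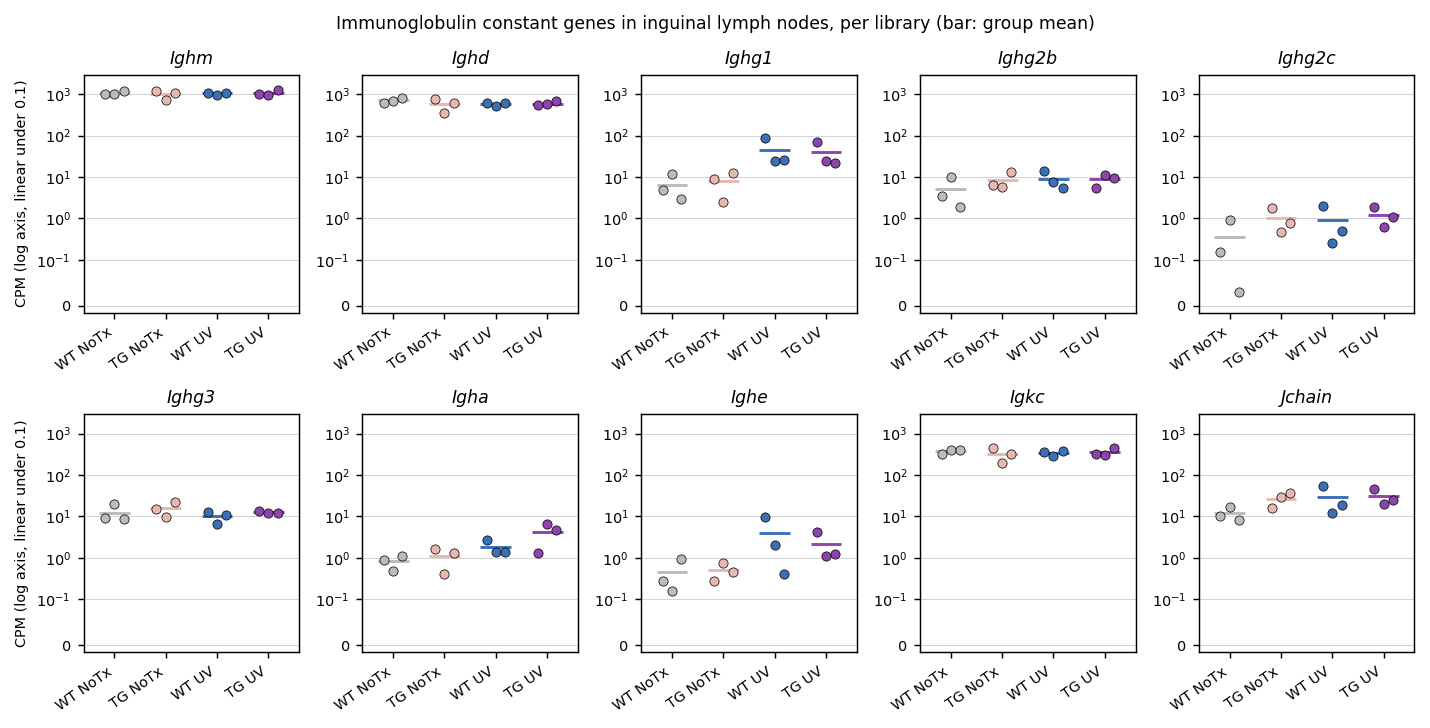
CPM of each of the 10 genes in every node library, on an axis that is logarithmic above 0.1 CPM and linear below, with a bar at the group mean. Ighg1 is at 2.55 to 12.2 CPM in NoTx and 21.8 to 85.9 in UV nodes, while Ighm and Igkc overlap in all 4 groups. Ighd is lower in every WT UV than in every WT NoTx node and overlaps between the TG groups.

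No member was called by genotype in nodes. In untreated mice, in UV mice, averaged over treatment and in the interaction, edgeR and DESeq2 each called 0 of 10 members, and 0 had an unadjusted p under 0.05. Backgrounds by edgeR were 0.00%, 0.00%, 0.00618% and 0.00%, and DESeq2 called 2, 19, 13 and 8 of 16173 genes. The highest averaged differences were those of Ighg2c (0.95, SE 0.66), Igha (0.83, SE 0.42) and Jchain (0.63, SE 0.42), whose ranges overlapped between genotypes, and differences of that size cannot be resolved against this spread.

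In nodes after UVB, averaged over genotype, 4.81% of all tested genes were higher and 3.80% lower. Of 11 tested isotype-directing genes, 3 were higher and 0 lower in that comparison, with a median of 0.14 beside 0.01 over all. They included Il21 (1.71, SE 0.40, adjusted p = 0.0246), a helper T cell cytokine that acts on germinal centre B cells and on switching to IgG, and Ifng (0.92, SE 0.25, adjusted p = 0.0384). Il4, the main inducer of switching to IgG1 and IgE in mice, had too few counts to be tested. Of 8 germinal centre and switching genes 0 passed, with a median of 0.96. Of 10 B cell genes only Cr2, a complement receptor of mature B cells and follicular dendritic cells, was higher (0.42, adjusted p = 0.0398), 0 of 9 plasma cell genes and 0 of 3 lambda light chain genes passed, and of 9 Fc receptor genes Fcgr2b, the inhibitory IgG receptor, was higher (0.52, SE 0.12, adjusted p = 0.027).

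The genes nearest to Ighg1 in pattern over the 12 node libraries were Rad51ap1 (r = 0.98), Cep55 and Kif22 (both 0.97). For Igha they were Synpo, Cdh1 and Adam19 (0.91 to 0.88), for Ighe Edn3, Slc22a15 and Gm15853 (0.93 to 0.87), for Ighd Bank1, Cd79b and Marchf1 (0.97 to 0.96), and for Igkc Cd79a, Ms4a1 and Fcrla (0.97 to 0.96). Non-lymphoid signals moved with treatment too. Erythroid genes (Hbb-bs, Hba-a1, Alas2) summed to 80.1 to 192 CPM in NoTx and 6.69 to 105 in UV nodes, 3 of 3 lower, and Glycam1, a product of the high endothelial venules through which lymphocytes enter nodes, was lower (−1.34, SE 0.18, adjusted p = 0.00535). Their part in the isotype results was not tested.

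**Figure D5:**
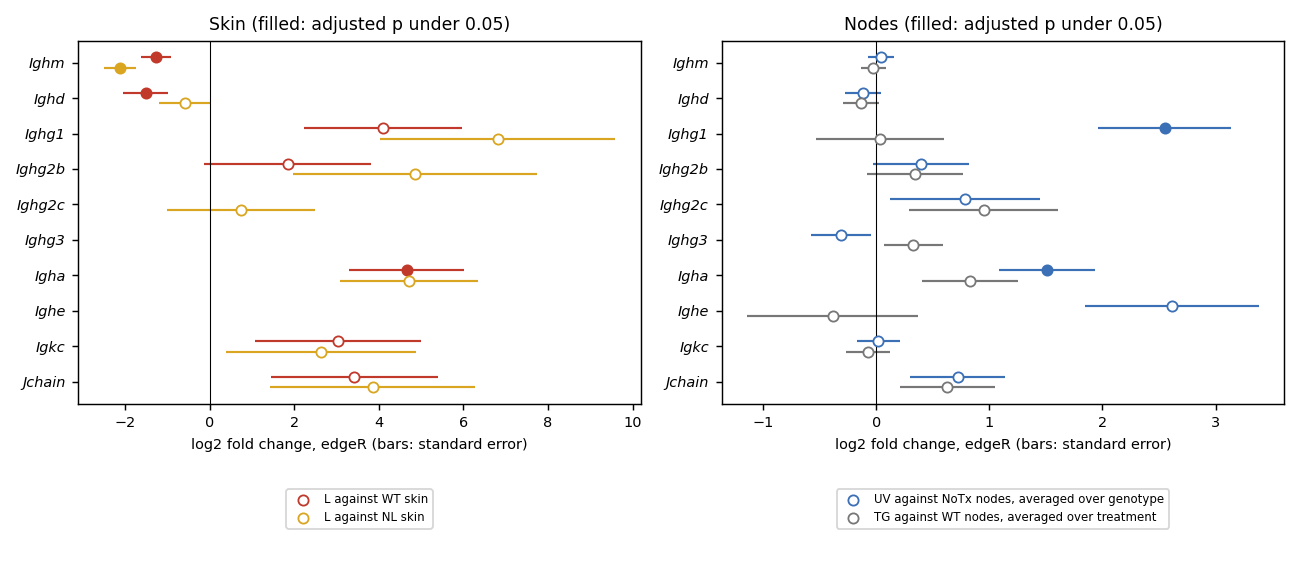
Log2 fold changes of the members with standard errors, in skin (L against WT and against NL) and in nodes (UV against NoTx and TG against WT, each averaged over the other factor), with filled points at an adjusted p under 0.05. Ighg3 and Ighe were not tested in skin, and Ighg2c against WT is left out because every WT library was at 0. Filled points are Ighm, Ighd and Igha in skin and Ighg1 and Igha after UVB.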

How the data were processed

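RNA was sequenced from 9 skin and 12 inguinal lymph node libraries after poly-A selection, with paired reads of 151 bases. The submitters' notes name cutadapt 4.8, FastQC 0.11.8, STAR 2.7.8a, RSEM 1.3.3 and MultiQC 1.20 on GRCm38. The annotation release and the strand setting of counting are not given in the sources used here. The authors deposited RSEM expected counts per gene, 1 table per tissue, which held whole numbers and were not normalized. The 4 reporter sequences (all at 0) were removed.

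Counts were tested per tissue with edgeR 4.0.16 (R 4.3.3, limma 3.58.1, TMM factors, filterByExpr, robust quasi-likelihood fit of all groups), with Benjamini-Hochberg adjustment over all tested genes and a threshold of 0.05. The study used DESeq2, which served as an alternative (1.42.0). Each SE was derived from the edgeR test, as the absolute log2 fold change divided by the square root of its F statistic. The edgeR script was tested on simulated counts. CPM are counts scaled to 1000000 on TMM-scaled library sizes, and values per kb use exon lengths of GENCODE M21. Wilson intervals were computed with scipy 1.17.1. Shares were not tested. Replicate numbers follow the labels.

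Named genes were all 10 members, at most 3 genes per list with the largest called change, and for each tested member the 3 genes outside the immunoglobulin segments with the highest Pearson correlation of log2 CPM. Genes named at values that did not pass, or beyond the 3 of a list, were chosen after the values were seen, and some list genes are not reported here by name. The members and the 14 gene lists were chosen with earlier results of these data known. Alternatives were DESeq2, other scalings and filters, a non-robust fit, Xist as covariate, only the groups compared, and leaving out each library in turn. After the values were seen, 2 pairs of skin libraries were also left out together.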

Additional observations from a re-analysis of the deposited data

Results flagged for a closer look

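In lesional skin, the only group of more than 3 libraries, 10 values were tested for a library far from the other 3. Dixon's gap test was used at the 95% level on values that were not log-transformed. Chance passes it in about 1 in 20 groups only where values are normally distributed. That was not checked here, and skewed CPM can pass more often. With this limit, 4 values were flagged. All 4 were in L replicate 6. Igha was at 96.5 CPM there and 3.03 to 13.5 CPM in the other lesions, Jchain at 80.3 against 1.51 to 14.2, Ighg2b at 14.9 against 0.126 to 1.35, and Ighg3 at 1.17 against 0 to 0.0987. These 4 genes share the library and are not independent flags. The same library had 6 Xist counts, while the other 3 lesions had 6700 to 8109.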

How the results depend on the processing

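No paired analysis was possible because the labels do not say which libraries, if any, share a mouse. With 10 comparisons, counts of called members moved by over 1.5 times in the following cases. L against WT gave 3 called members, 0 to 3 when 1 library was left out, and 1 without WT replicate 10 and NL replicate 2, a pair chosen after seeing the data. L against NL gave 1, with 3 by DESeq2 (Ighm, Ighg1 and Igha), 0 without that pair, and 0 to 3 with 1 library left out. UV against NoTx in WT gave 0, with 2 by DESeq2 and 1 (Ighg1) without the robust fit. Averaged over genotype it gave 2, with 1 under upper-quartile factors, 0 without a filter on low counts, 1 with Xist as covariate, and 0 to 2 with 1 library left out. Where an arm kept 1 library, it was assumed to vary like the other groups. Direction turned in 5 of 615 refits of 31 member values, none of them called: Ighg2b in L against WT was −0.86 without L replicate 6 and −0.89 without NL replicate 3 and L replicate 6 (few Xist counts, also chosen after seeing the data), Igkc in L against NL was −0.0398 without that same pair, and without WT UV replicate 7 the interactions of Ighg1 and Ighe were 0.37 and 0.76. With 1 library left out, these values spanned −0.86 to 8.20, −1.22 to 0.37 and −2.07 to 0.76 for Ighg2b, Ighg1 and Ighe. Of the other refits, 559 kept side and direction, 41 lost and 10 gained the threshold. With 1 library left out, the mean switched share spanned 28.7% to 49.3% in L, 0.711% to 4.94% in WT skin and 0.74% to 1.1% in NL. Per kb of exon these means were 33.5%, 2.52% and 0.746%. In nodes the spans were 0.939% to 1.81% in WT NoTx and 1.75% to 2.33% in TG NoTx. After UVB they were 2.62% to 4.87% in WT and 3% to 4.7% in TG.

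Counts over all genes moved more. L against WT called 8237 genes and 4987 without WT replicate 10 and NL replicate 2. L against NL called 4782, with 3156 in the fit of those groups alone, 391 and 702 without either pair, and 1182 to 5187 with 1 library left out. UV against NoTx called 805 in WT (2002 by DESeq2, 470 with Xist, 2431 in the fit of those groups alone, 0 to 2644 with 1 library left out), 0 in TG (137 by DESeq2, 0 to 236) and 1393 averaged (2440 by DESeq2, 373 to 3790). Upper-quartile factors turned the averaged split from 778 higher and 615 lower to 618 and 751. DESeq2 called 80 genes between NL and WT, where edgeR called 0. Few libraries per group and the low counts of switched genes in nonlesional skin limit these values.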
